A study of Homo sapiens with 8 samples.

Results

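ATP-binding cassette (ABC) genes were taken as the protein-coding genes whose symbol is ABC, a letter from A to G and a number. They numbered 45 of the 58302 genes in the expression tables, and 24 of them reached a mean of 1 FPKM (fragments per kilobase of transcript, scaled to the total of each library) over the 8 libraries. The 7 drug efflux genes ABCB1, ABCG2 and ABCC1 to ABCC5 are described apart from the other 38. RNA was sequenced from SK-Hep1, a human cell line. Mock control cells were set beside cells given ectopic SLC29A2, an equilibrative nucleoside transporter of the plasma membrane. Each of these 2 kinds of cell received control treatment, sorafenib, dipyridamole or both drugs, and each of the 8 conditions was sequenced as 1 library. Doses, treatment times, the vector, its promoter and whether the SLC29A2 cells were a clone or a pool were not stated in the labels.

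Sorafenib is a multikinase inhibitor used against hepatocellular carcinoma, and dipyridamole inhibits cyclic nucleotide phosphodiesterases and blocks equilibrative nucleoside transporters, SLC29A2 among them. SLC29A2 was higher in the SLC29A2 cells by 7.93 ± 0.18 (SE) on the log2(FPKM + 1) scale, which fits the labels of the 8 libraries. SK-Hep1 carries a liver label. Of 8 hepatocyte markers, 2 were listed at 0 in every library and 5 more had means under 0.05 FPKM (albumin, ALB, at 0.0301), while SERPINA1 had a mean of 3.19 FPKM. All 8 endothelial markers had means under 1 FPKM. The libraries held 14.1 to 16.7 M reads. The 2 dipyridamole-treated libraries of control cells stood apart from the other 6: 2.55% and 2.77% of their reads fell in non-coding genes, against 1.64% to 1.98% elsewhere, and they listed 23766 and 24801 genes above 0, against 22613 to 23514.

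ABC proteins bind and hydrolyse ATP, and most use it to move a substrate across a membrane. Subfamily A moves lipids, B holds drug, bile and mitochondrial transporters, and C holds the multidrug resistance proteins together with the regulators of potassium channels. Subfamily D imports fatty acids into peroxisomes or moves cobalamin, and G moves drugs and sterols. Members of E and F have ATP-binding domains but no membrane-spanning part, and act in translation and ribosome recycling. In the liver, hepatocytes use ABCB1, ABCB4, ABCB11, ABCC2 and ABCG2 at the bile canaliculus and ABCC3 and ABCC4 at the blood side, and ABCB1 and ABCG2 are known to carry sorafenib.

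Promoter sequence is shown for the 4 members that changed with dipyridamole, in either direction, and held the motif searched. The motif chosen, the cAMP response element, is the binding site of transcription factors activated by cAMP, a substrate of the phosphodiesterases. RefSeq promoter windows (GRCh38.p14) were found for 35 of the 45 genes, and the 250 bases before each start were searched on both strands for TGACG, the core of that element, which overlaps its full form TGACGTCA. In the 4 stretches below, written 5′ to 3′ on the gene's strand, capitals mark the match, and in ABCF2 it lies on the opposite strand and reads CGTCA. They lie at chr12:21941518-21941577 (minus strand, ABCC9), chr1:94418139-94418198 (plus strand, ABCD3), chr7:151227341-151227400 (minus strand, ABCF2) and chr4:145098202-145098231 (plus strand, ABCE1). The RefSeq starts differ from the GENCODE gene limits given further on, and the ABCC9 and ABCE1 stretches lie inside those limits.
ABCC9: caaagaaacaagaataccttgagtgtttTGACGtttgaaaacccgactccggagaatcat
ABCD3: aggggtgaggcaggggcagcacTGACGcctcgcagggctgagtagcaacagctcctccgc
ABCF2: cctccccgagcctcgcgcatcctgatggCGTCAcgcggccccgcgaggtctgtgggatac
ABCE1: tcgcagctcaaTGACGTCAtatctccctac
ABCE1 carried the full 8-base palindrome, which 1.65% of the 35116 promoter windows hold. Its window overlaps exons of ANAPC10, a gene on the opposite strand. TGACG was present in 21.2% of all windows and in 17 of the 53 windows of ABC genes (32.1%), where a gene can have more than 1 window. By gene, at least 1 window held it in 13 of the 20 ABC genes that had a window and reached 1 FPKM. Of these, 4 of the 7 that changed with dipyridamole held it, as did 9 of the 13 others. The share by gene was not counted over all genes, so these counts cannot be set against the 21.2% of windows. ABCC9 rose and the other 3 shown fell. ABCC9 reached the mean of 1 FPKM only through its dipyridamole-treated libraries, so no direction is read from a match. A match describes these letters and is not evidence of a bound factor.

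The 45 genes covered a wide range of levels. The plot of levels by library shows 22 of the 24 that reached 1 FPKM. These 24 are 53.3% of the family, against 58.7% of all protein-coding genes. ABCF1, which acts in translation initiation, was the highest at 117.6 ± 12.5 FPKM (SD over the 8 libraries, which differ in condition), and ABCF2 followed at 65.5 ± 14.4. Next came ABCA2 (55.6 ± 8.63), ABCC10 (54.0 ± 8.09), ABCC1 (50.2 ± 4.52) and ABCB8 (49.9 ± 5.49), whose spreads overlapped. Genes were not tested against each other. ABCB6, a mitochondrial and endosomal porphyrin transporter, fell just outside the limit at 0.988 FPKM and ABCG4 just inside it at 1.11. The tested members had a median of 29.5 FPKM, against 14.9 over all 13899 genes tested, and a median coefficient of variation over libraries of 20.7%, against 24.0%.

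**Figure D1:**
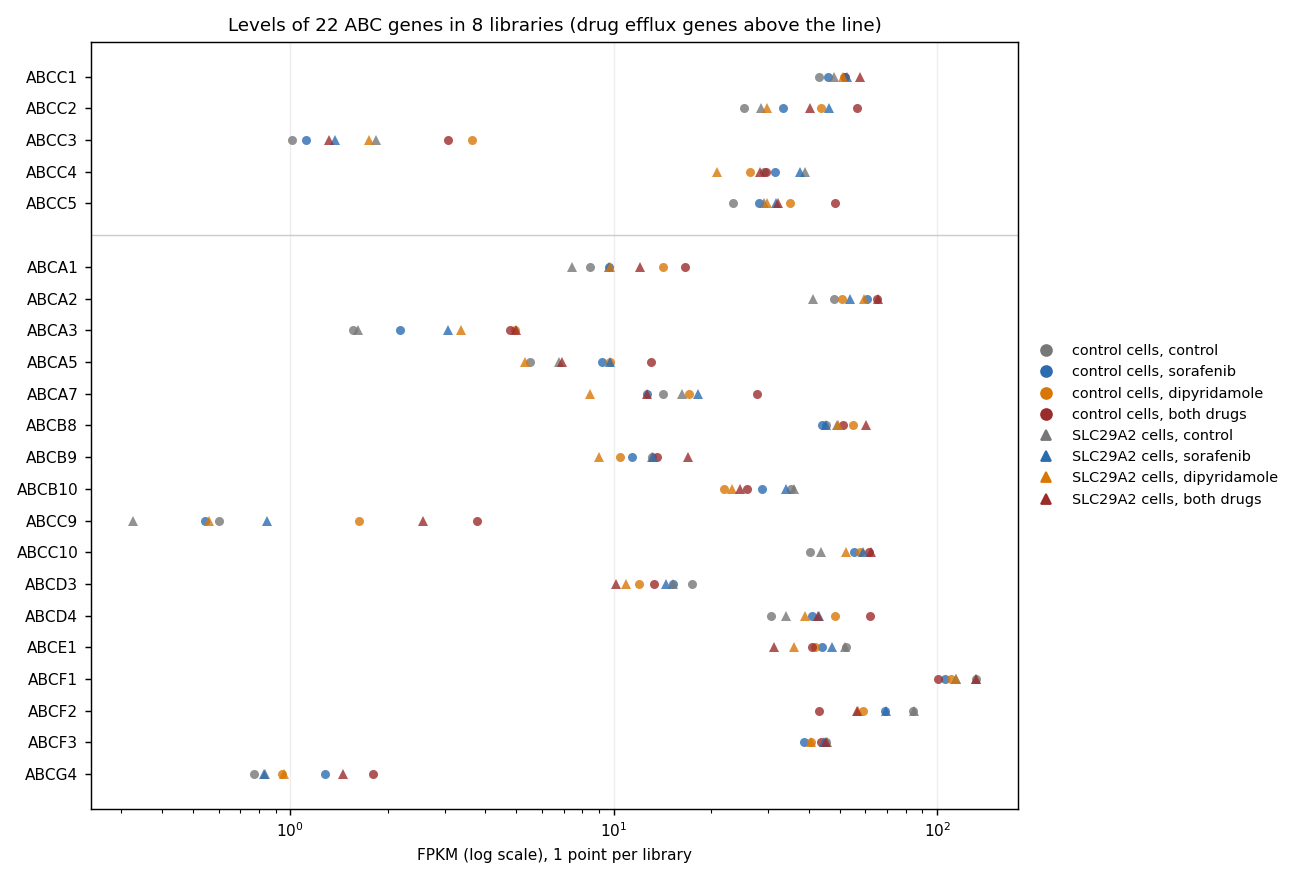
FPKM (log scale) of 22 ABC genes that reached 1 FPKM, with 1 point per library, coloured by treatment and shaped by cell type, and drug efflux genes above the line. ABCF1 lies above 100 FPKM in every library, while ABCC9 spans 0.326 to 3.77 FPKM.

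All 3 members of subfamily F and the single member of E passed, as did 5 of 12 in A, 4 of 9 in B, 7 of 11 in C, 3 of 4 in D and 1 of 5 in G. The remaining 21 genes had low values. In subfamily A, the highest single value was 1.28 FPKM for ABCA10, followed by 1.02 for the retinal lipid transporter ABCA4, and ABCA6, ABCA8, ABCA9, ABCA12 and ABCA13 stayed at or under 0.117. ABCB4, the phosphatidylcholine transporter of bile, and ABCB5 reached 0.0608 and 0.0475 FPKM. ABCB11, the bile salt export pump, had no read in any library. In subfamily C, ABCC6 reached 0.538 FPKM, ABCC8 and ABCC11 reached 0.0989 and 0.0934, and ABCC12 had no read. The peroxisomal ABCD2 reached 0.0221. ABCG1, which passes cholesterol to lipoproteins, reached 0.119, and the intestinal and biliary sterol transporters ABCG5 and ABCG8 reached 0.0239 and 0.0267. A count of 0 allows up to 3 reads, which in these libraries equals 0.0596 to 0.0707 FPKM for ABCB11 and 0.0655 to 0.0777 for ABCC12. Such limits cover counting error only.

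ABCB1, the broad-range P-glycoprotein pump, was close to undetected. It had 2 reads in control cells under control treatment (0.0649 FPKM), 1 with sorafenib (0.0347), 1 with dipyridamole (0.0385) and 0 with both drugs. In SLC29A2 cells it had 1 read under control treatment (0.0352) and 0 in the 3 drug-treated libraries, and a count of 0 allows 0.0974 to 0.116 FPKM. ABCG2, the breast cancer resistance protein, had no read in any of the 8 libraries, where a count of 0 allows 0.0716 to 0.0850 FPKM. No comparison between conditions was possible for either gene at this depth.

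ABCC1, which exports glutathione conjugates and leukotrienes, led the drug efflux genes in 7 of the 8 libraries. In control cells it stood at 43.1 FPKM under control treatment, 45.8 with sorafenib, 51.4 with dipyridamole and 52.0 with both drugs. The SLC29A2 cells gave 47.9, 52.6, 51.3 and 57.8 in the same order. Relative to its mean it varied least of the 5 (a coefficient of variation of 9.01%, against 19.5% to 50.7% for ABCC2 to ABCC5), and ABCC1 made up 27.5% to 38.4% of the summed efflux FPKM.

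ABCC2, the canalicular pump for conjugated bilirubin and drugs, varied more. Control cells had 25.3 FPKM under control treatment, 33.4 with sorafenib, 43.8 with dipyridamole and 56.4 with both drugs, where it passed ABCC1. In SLC29A2 cells the values were 28.6, 46.2, 29.7 and 40.4. The sorafenib-treated library was thus the higher in all 4 pairs. Libraries with dipyridamole were the higher of their pair in control cells, and in SLC29A2 cells 1 was slightly above and 1 below its partner.

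ABCC3, a basolateral exporter of glucuronides and bile salts, was low. Its values in control cells were 1.01, 1.12, 3.65 and 3.06 FPKM (control treatment, sorafenib, dipyridamole, both drugs), from 28, 29, 85 and 76 reads. In SLC29A2 cells they were 1.84, 1.37, 1.75 and 1.32, from 47, 33, 47 and 36 reads. The 2 dipyridamole-treated libraries of control cells were the only ones above 2 FPKM.

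ABCC4, which exports cyclic nucleotides and nucleotide analogues, differed in the opposite direction. Control cells had 29.1, 31.4, 26.4 and 29.6 FPKM in that order, and SLC29A2 cells had 39.0, 37.7, 20.8 and 28.3. Each of the 4 pairs was lower with dipyridamole, and the groups with and without it overlapped by 1 library on each side. ABCC5, also an exporter of cyclic nucleotides and nucleotide analogues, had 23.4, 28.2, 35.1 and 48.1 FPKM in control cells and 29.2, 31.7, 29.8 and 32.2 in SLC29A2 cells. Its SLC29A2 libraries lay within a few FPKM of each other, and its control-cell libraries spread over the whole range. Over all libraries, the means of ABCC2 (38.0 ± 10.6), ABCC5 (32.2 ± 7.28) and ABCC4 (30.3 ± 5.89) had overlapping spreads (SD over libraries that differ in condition). These genes were not tested against each other.

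**Figure D2:**
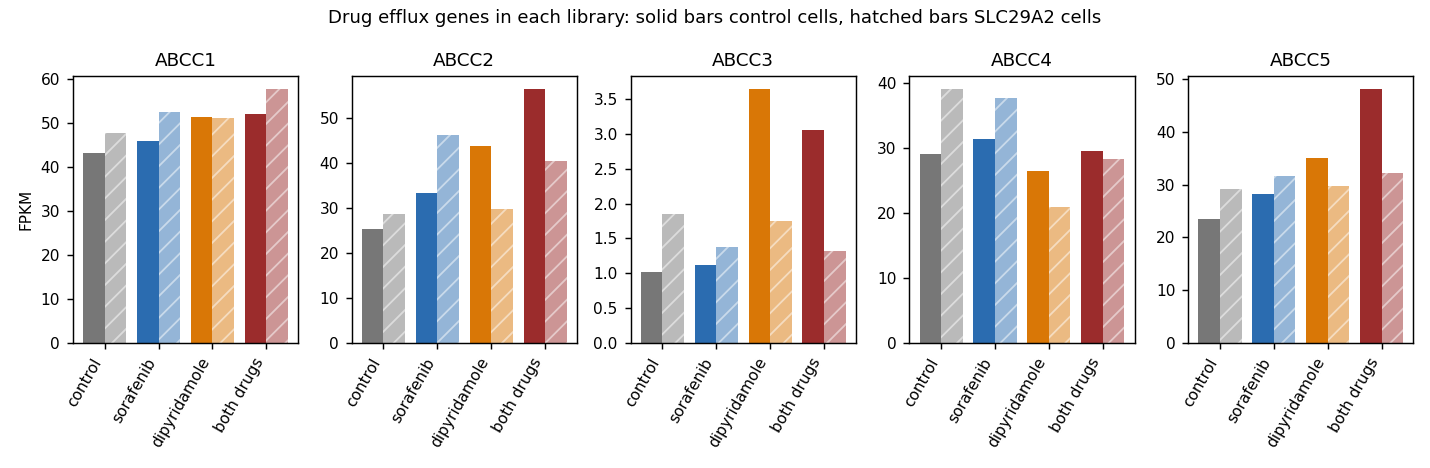
FPKM of ABCC1 to ABCC5 in each library, by treatment, with solid bars for control cells and hatched bars for SLC29A2 cells (1 library per bar, so no error bar). ABCC3 and ABCC5 stand highest in the 2 dipyridamole-treated libraries of control cells, at 3.65 and 3.06, and 35.1 and 48.1 FPKM. ABCC2 is highest in control cells with both drugs (56.4), then in SLC29A2 cells with sorafenib (46.2) and control cells with dipyridamole (43.8).

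Summed over the 7 drug efflux genes, the level was 122, 140, 160 and 189 FPKM in control cells and 147, 170, 133 and 160 FPKM in SLC29A2 cells, in the order control treatment, sorafenib, dipyridamole, both drugs. Without further scaling, the sum was lowest in control cells under control treatment and highest in control cells with both drugs. The median-of-ratios size factor, a scale of each library over all genes, was also largest in that last library, at 1.21. It was 0.994 in SLC29A2 cells with sorafenib, which had the next highest sum. The order of the libraries can thus depend on scaling, and scaled sums were not computed.

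Each factor was tested over all 8 libraries with limma on log2(FPKM + 1), where an effect is the mean of 4 pairs of libraries that differ in that factor alone. These differences understate the change of low genes. The p-values rest on how far single libraries depart from the sum of the effects of cell type, sorafenib and dipyridamole. No condition was repeated, so interactions left out of a fit and variation between libraries cannot be told apart in them. With Benjamini-Hochberg adjustment over all 13899 genes, 7 of the 24 ABC genes (29.2%) changed with dipyridamole at an adjusted p under 0.05, against 30.0% of all genes tested. Of the 7, 3 rose and 4 fell, against 17.5% and 12.6% of all genes, so the family's share was close to the background. ABCC9 was 1 of the 3 and reached the mean of 1 FPKM only through its dipyridamole-treated libraries. None of the 5 tested drug efflux genes was among the 7, and 13 of the 24 had an unadjusted p under 0.05 (42.0% of all genes). The median difference was 0.19 over the 24 genes and 0.07 over all genes.

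**Figure D3:**
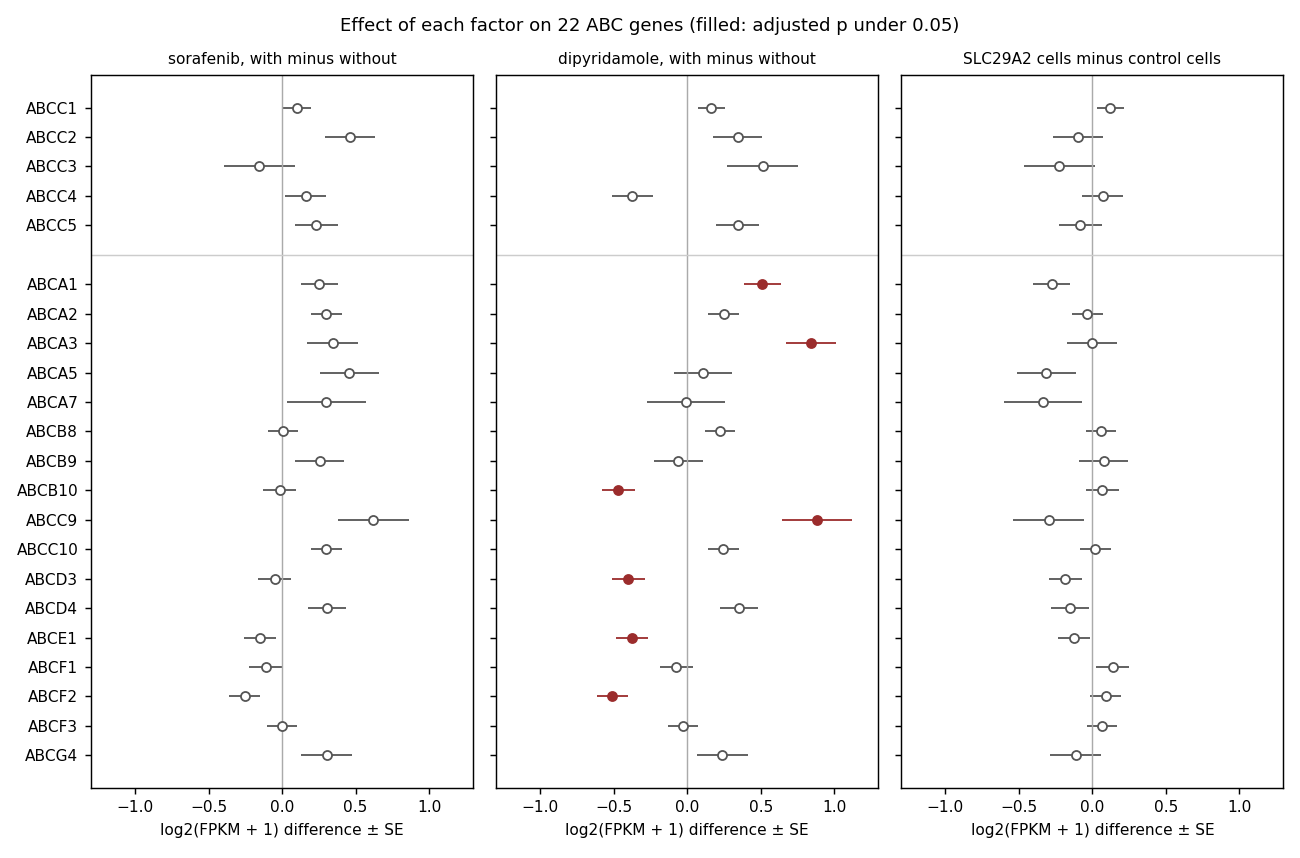
Differences on the log2(FPKM + 1) scale with their standard errors from limma for 22 ABC genes, 1 panel per factor, with filled points for an adjusted p under 0.05 and drug efflux genes above the line. Filled points appear for dipyridamole alone, from 0.88 for ABCC9 to -0.51 for ABCF2.

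Among lipid transporters, 2 rose with dipyridamole. ABCA1, which loads cholesterol and phospholipid onto apolipoprotein A-I (chromosome 9, 104781002 to 104928237, minus strand, GRCh38), had 8.44 and 9.68 FPKM in control cells without dipyridamole (control treatment, sorafenib) and 14.2 and 16.6 with it (dipyridamole, both drugs). In SLC29A2 cells it had 7.43 and 9.65 without and 9.71 and 12.1 with. The groups did not overlap, though 9.68 and 9.71 nearly met, and the means were 8.80 ± 1.08 and 13.1 ± 2.94 FPKM (SD, n = 4 libraries each). The difference was 0.51 ± 0.13 (SE; limma adjusted p = 0.0153), with all 4 pairs higher. The call was lost without the control-cell sorafenib library (limma adjusted p = 0.0622), the control-cell dipyridamole library (0.0511), the control-cell library with both drugs (0.0511) or that pair together (0.135).

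ABCA3, the phospholipid transporter of lung surfactant (chromosome 16, 2275881 to 2340746, minus strand), had 1.56 and 2.19 FPKM without and 4.94 and 4.78 with dipyridamole in control cells. The values in SLC29A2 cells were 1.62 and 3.08 without and 3.37 and 4.99 with. Every library with dipyridamole was above every library without, at means of 4.52 ± 0.774 against 2.11 ± 0.705 FPKM. The difference was 0.84 ± 0.17 (limma adjusted p = 0.00670). Without both dipyridamole-treated control-cell libraries it was 0.65 (adjusted p = 0.0565 with limma).

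The other lipid transporters at or above 1 FPKM did not pass. The endolysosomal ABCA2 ranged from 41.3 to 65.8 FPKM. ABCA5 had a mean of 8.28 FPKM (5.30 to 13.0) and the phospholipid transporter ABCA7 a mean of 15.9 (8.42 to 27.8), while the brain sterol transporter ABCG4 ranged from 0.770 to 1.81. ABCA5 and ABCA10 overlap on the same strand on chromosome 17.

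ABCC9, the sulphonylurea receptor that regulates ATP-sensitive potassium channels (chromosome 12, 21797401 to 21942529, minus strand), rose. Control cells had 0.602 and 0.543 FPKM without dipyridamole and 1.63 and 3.77 with it, from 32, 27, 73 and 180 reads. SLC29A2 cells had 0.326 and 0.845 without and 0.562 and 2.57 with, from 16, 39, 29 and 135 reads. The 2 libraries with both drugs were the highest, and the groups overlapped, since dipyridamole alone in SLC29A2 cells lay under 0.602. The difference was 0.88 ± 0.24 (limma adjusted p = 0.0237), and all 4 pairs were higher. On reads recovered from the FPKM, limma voom gave 1.74 ± 0.34. ABCC9 reached the mean of 1 FPKM only through its dipyridamole-treated libraries (2.13 ± 1.37 against 0.579 ± 0.213), so its call supports nothing further. The limma adjusted p was 0.0905 with no filter. It was 0.0670 without the control-cell sorafenib library, 0.0615 without the control-cell dipyridamole library, 0.0792 without the control-cell library with both drugs, 0.0654 without the SLC29A2 library with both drugs and 0.249 with neither dipyridamole-treated library of control cells. Of the pore subunits that pair with ABCC8 and ABCC9, KCNJ11 (2.30 to 8.76 FPKM) rose by 0.78 ± 0.22 (limma adjusted p = 0.0254) and KCNJ8 was listed at 0 in every library. ABCC10, another drug pump of subfamily C, ranged from 40.4 to 62.4 FPKM and did not pass.

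The mitochondrial exporter ABCB10, linked to haem synthesis in the inner membrane (chromosome 1, 229516582 to 229558695, minus strand), fell. It had 35.4 and 28.7 FPKM without dipyridamole in control cells and 22.0 and 25.8 with it. In SLC29A2 cells the values were 36.0 and 34.0 without and 23.2 and 24.6 with. No library with dipyridamole reached the level of one without, and the means were 23.9 ± 1.65 and 33.5 ± 3.29 FPKM. The difference was -0.47 ± 0.11 (limma adjusted p = 0.0145), and the adjusted p was 0.0523 without the SLC29A2 control-treatment library. The mitochondrial ABCB8 ranged from 43.9 to 60.2 FPKM and the lysosomal peptide transporter ABCB9 had a mean of 12.6 (9.0 to 16.9), and neither passed. The ABCB8 groups with and without dipyridamole did not overlap either, and all 4 pairs were higher (limma adjusted p = 0.135). A lack of overlap was thus not confined to called genes, and its share over all genes was not counted. Of 17 haem and iron-sulphur genes, 1 fell with dipyridamole (against 12.6% of all genes) and none rose (17.5%). The 1 was the cysteine desulphurase NFS1 (-0.33 ± 0.10, limma adjusted p = 0.0421).

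Of the peroxisomal transporters, ABCD3, which imports branched-chain and long-chain acyl groups (chromosome 1, 94418455 to 94518666, plus strand), fell. Its levels in control cells were 17.4 and 15.3 FPKM without and 12.01 and 13.3 with dipyridamole, and in SLC29A2 cells 15.3 and 14.5 without and 10.9 and 10.2 with. The groups did not overlap (15.6 ± 1.24 against 11.6 ± 1.39 FPKM), and the difference was -0.40 ± 0.11 (limma adjusted p = 0.0250). The lysosomal cobalamin transporter ABCD4 had a mean of 42.6 FPKM (30.5 to 62.1) and did not pass. The adjusted p of ABCD3 was 0.0766 without the control-cell control-treatment library, 0.0691 without the control-cell dipyridamole library, 0.0770 without the SLC29A2 control-treatment library, 0.0798 without the SLC29A2 sorafenib library, 0.0583 without the SLC29A2 dipyridamole library and 0.0600 without the SLC29A2 library with both drugs. ABCD4 passed without the SLC29A2 library with both drugs (limma adjusted p = 0.0245).

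Both translation factors with a call fell. ABCE1, which splits ribosomes after termination (chromosome 4, 145097932 to 145129179, plus strand), had 52.2 and 44.1 FPKM without and 41.9 and 41.0 with dipyridamole in control cells, and 51.9 and 47.2 without and 36.2 and 31.4 with in SLC29A2 cells. The groups did not overlap, at means of 48.8 ± 3.90 and 37.6 ± 4.87 FPKM. The difference was -0.37 ± 0.11 (limma adjusted p = 0.0301). The adjusted p was 0.0630 with no filter, 0.0567 without the control-cell control-treatment library, 0.0581 without the control-cell dipyridamole library, 0.101 without the SLC29A2 control-treatment library, 0.105 without the SLC29A2 sorafenib library, 0.0820 without the SLC29A2 dipyridamole library and 0.0738 without the SLC29A2 library with both drugs. ABCE1 overlaps OTUD4 (40.0 FPKM) and ANAPC10 (4.82 FPKM) on the other strand, and without stranded counting their reads cannot be told apart.

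ABCF2, a cytosolic ATP-binding protein of the translation group (chromosome 7, 151212490 to 151227230, minus strand), showed the most negative difference of the family with dipyridamole. Control cells had 84.0 and 69.1 FPKM without and 59.1 and 43.1 with dipyridamole, and SLC29A2 cells had 85.1 and 69.6 without and 57.0 and 56.6 with. All 4 libraries with dipyridamole were lower than the 4 without (53.9 ± 7.30 against 77.0 ± 8.77 FPKM). The difference was -0.51 ± 0.11 (limma adjusted p = 0.00724), and the adjusted p was 0.0520 without both dipyridamole-treated control-cell libraries. ABCF1 (100.9 to 132.1 FPKM) and ABCF3 (mean 43.1, 38.6 to 45.8) did not pass. In a list of 13 other translation and ribosome-recycling genes, none fell (12.6% of all genes) and 3 rose with dipyridamole, a share near the 17.5% of all genes. The 3 were the ribosome rescue factor PELO (0.36 ± 0.11), EIF2S3 (0.33 ± 0.10) and EIF1 (0.59 ± 0.14), with limma adjusted p-values of 0.0408, 0.0404 and 0.0125.

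**Figure D4:**
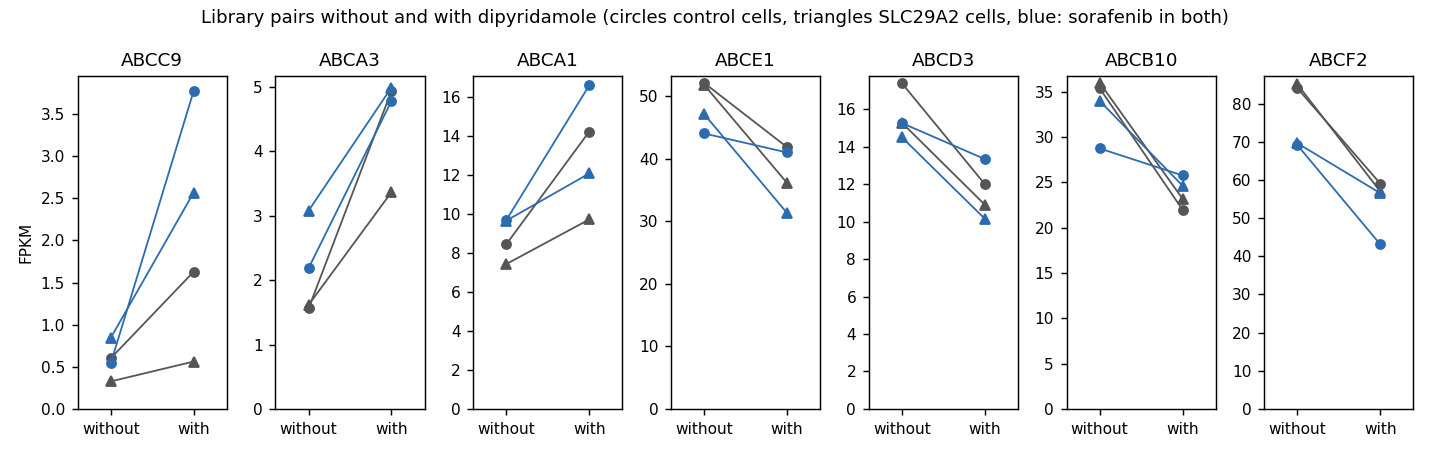
FPKM of the 7 ABC genes that changed with dipyridamole, 1 panel per gene, with lines joining the 4 pairs of libraries that differ in dipyridamole alone (circles for control cells, triangles for SLC29A2 cells, blue for sorafenib in both libraries of the pair). Every line rises for ABCC9, ABCA3 and ABCA1 and falls for ABCE1, ABCD3, ABCB10 and ABCF2.

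All 7 were called again when each library was scaled by a median-of-ratios size factor. Their direction was kept, but the shifts were too small to turn it, for example from 0.51 to 0.42 for ABCA1 and from -0.37 to -0.47 for ABCE1. That scaling also called ABCC4 (-0.47 ± 0.12, limma adjusted p = 0.0166, against -0.37 ± 0.14 and 0.0712 before), as did voom on recovered reads (-0.46 ± 0.13, limma adjusted p = 0.0151). Of the other efflux genes, ABCC2 passed without the SLC29A2 sorafenib library (0.50, limma adjusted p = 0.0489) and ABCC5 without the SLC29A2 library with both drugs (0.45, 0.0497). With all pairwise interactions in the model, ABCC2, ABCC3, ABCC4 and ABCC5 passed with dipyridamole. That model leaves 1 residual degree of freedom and called 7411 of all 13899 genes. ABCC4 passed with neither dipyridamole-treated library of control cells (-0.64, 0.0336). Size-factor scaling moved the median of all genes by more than 0.1 for sorafenib (0.09 to -0.02), for sorafenib by dipyridamole (0.11 to -0.01) and for cell type by dipyridamole (-0.14 to 0.04). For dipyridamole it turned the calls over all genes from 2428 higher and 1745 lower to 1858 and 2298. ABCB10 and ABCF2 have pseudogene copies elsewhere in the genome, and how shared reads were assigned is not stated in the labels.

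Some genes used as cell type markers moved with dipyridamole too, in libraries that were all of the SK-Hep1 line. Of the 5 epithelial markers, 3 were tested. KRT8 (-1.36 ± 0.18) and KRT18 (-1.87 ± 0.12) fell and none rose, against 12.6% and 17.5% of all genes. The summed level of the list was 733 to 1075 FPKM with dipyridamole against 2019 to 2781 without. EPCAM and CDH1 stayed at means of 0.126 and 0.0403 FPKM. Of the 6 mesenchymal markers, VIM (-0.45 ± 0.12), SPARC (-0.46 ± 0.15) and THY1 (-1.22 ± 0.13) fell (12.6% of all genes). COL6A1 (0.62 ± 0.18) rose (17.5% of all genes), and the rest did not pass. The sum was 1871 to 2463 FPKM with dipyridamole against 2438 to 3017 without. Endothelial and leukocyte sums stayed under 2.2 FPKM in every library. Their part in the ABC results was not tested. In bulk RNA of a cell line, fewer cells expressing a gene and less of its RNA per cell cannot be told apart.

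No ABC gene changed with sorafenib in limma (0 of 24, against 8.11% of all genes, 5.94% higher and 2.17% lower), and 7 had an unadjusted p under 0.05 (26.6% of all genes). Over all genes the calls with sorafenib were 825 higher and 302 lower, and size-factor scaling turned them to 442 and 487. The total of 1127 was 272 without the control-cell dipyridamole library, 300 without the control-cell library with both drugs, 323 without the SLC29A2 dipyridamole library, 449 without the control-cell sorafenib library, 464 without the SLC29A2 library with both drugs and 609 without the SLC29A2 control-treatment library. The largest difference was that of ABCC9, at 0.62 ± 0.24 (limma adjusted p = 0.142), with 3 of 4 pairs higher, and voom on recovered reads called it alone (1.15 ± 0.32, limma adjusted p = 0.0450). ABCC9 had means of 1.93 ± 1.52 FPKM with and 0.780 ± 0.579 without sorafenib, so it reached the mean of 1 FPKM only through the libraries where it was high, and its difference and call support nothing further. ABCC2 differed by 0.46 ± 0.17 (limma adjusted p = 0.122), with all 4 pairs between 0.36 and 0.67. For the other efflux genes the differences were 0.10 ± 0.09 for ABCC1, -0.16 ± 0.24 for ABCC3, 0.16 ± 0.14 for ABCC4 and 0.23 ± 0.15 for ABCC5, and that of ABCC1 was -0.02 under size-factor scaling. ABCF2 and ABCE1 were lower with sorafenib in all 4 pairs, by -0.25 ± 0.11 and -0.15 ± 0.11, without passing. The median was 0.21 over the 24 genes and 0.09 over all genes. Of the 8 hepatocyte markers only SERPINA1 was tested, and it rose with sorafenib (0.87 ± 0.14). The sum of that list was 3.71 to 5.64 FPKM with sorafenib against 1.75 to 2.38 without, and its part in these values was not tested.

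Between SLC29A2 and control cells, no ABC gene passed in limma or in voom (0 of 24, against 0.00719% of all genes, which is SLC29A2 itself), and none had an unadjusted p under 0.05 (3.93% of all genes). ABCC1 stood at 52.4 ± 4.11 FPKM in SLC29A2 cells and 48.1 ± 4.32 in control cells (SD, n = 4 libraries each), ABCC2 at 36.2 ± 8.51 and 39.7 ± 13.4, ABCC3 at 1.57 ± 0.265 and 2.21 ± 1.34, ABCC4 at 31.5 ± 8.55 and 29.1 ± 2.08, and ABCC5 at 30.7 ± 1.47 and 33.7 ± 10.8. Each of these differences was within the spread of the libraries.

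Whether a drug acted differently in the 2 kinds of cell was tested with an interaction term in the same limma fit. No ABC gene passed for cell type by dipyridamole (0 of 24, against 0% of all genes), where 7 had an unadjusted p under 0.05 (19.8% of all genes) and the lowest adjusted p was 0.113. For sorafenib by dipyridamole none passed (0.0863% of all genes, 0.0288% higher and 0.0576% lower) and 1, ABCB9, had an unadjusted p under 0.05 (13.2% of all genes). For cell type by sorafenib none passed (0% of all genes) and none had an unadjusted p under 0.05 (0.719% of all genes). Voom likewise called none in these 3 tests.

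The 7 genes with an unadjusted p under 0.05 for cell type by dipyridamole, picked for that p, are given by value. With dipyridamole, ABCC2 was higher by 0.75 in control cells (pairs 0.74 and 0.77) and differed by -0.07 in SLC29A2 cells (-0.19 and 0.06). ABCC3 was higher by 1.07 (0.94 and 1.21) in control cells and differed by -0.04 (-0.05 and -0.04) in SLC29A2 cells. For ABCC5 the differences were 0.66 (0.56 and 0.75) and 0.03 (0.02 and 0.03). ABCC4 differed little in control cells (-0.11) and was lower in SLC29A2 cells (-0.64). Outside the efflux genes, ABCD4 showed 0.62 and 0.09, and the sign differed between control and SLC29A2 cells for ABCA5 (0.59 and -0.37) and ABCA7 (0.67 and -0.68). All 7 were thus more positive in control cells. Size-factor scaling moved the interactions by similar amounts, for example from -0.53 to -0.33 for ABCC4 and from -1.35 to -1.15 for ABCA7. All 7 kept their sign, but shifts of this size could not turn values picked for a low p, so nothing is drawn from it. The median interaction over all genes was -0.14, and it was 0.04 under size-factor scaling and -0.01 with voom. Control cells are those whose dipyridamole-treated libraries stood apart in non-coding reads. The part of that feature in these values was not tested.

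**Figure D5:**
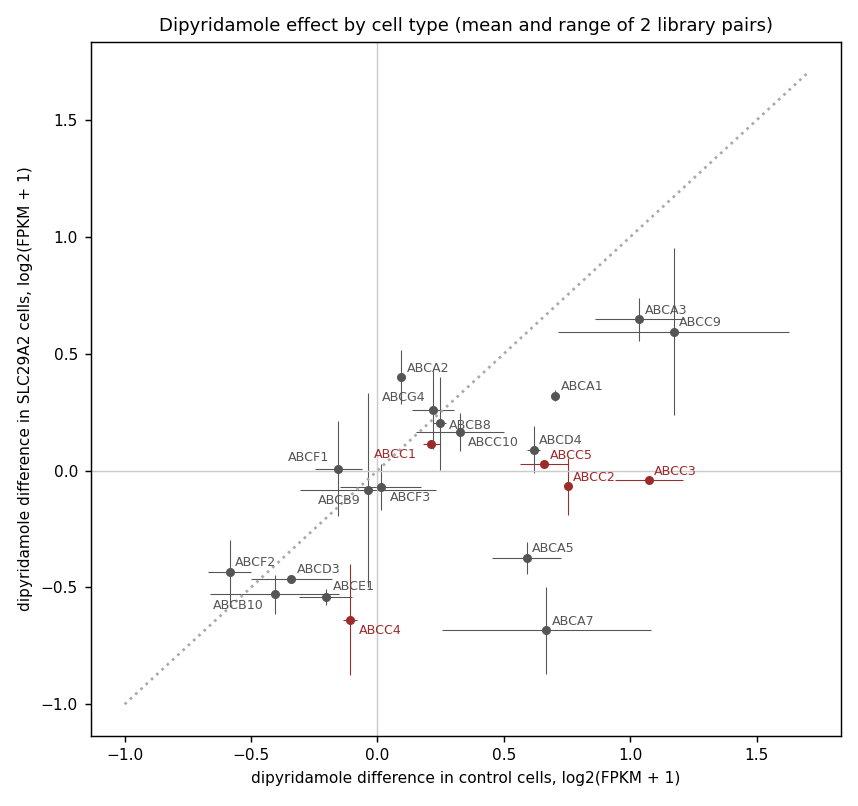
Dipyridamole difference on the log2(FPKM + 1) scale in control cells (x axis) and SLC29A2 cells (y axis) for 22 ABC genes, with the mean and range of 2 pairs of libraries each, drug efflux genes in red and the dotted line at equal differences. ABCC2, ABCC3 and ABCC5 lie right of the line near 0 on the y axis, and ABCF2, ABCB10 and ABCD3 lie near the line at lower left.

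Other genes of the pathways around these transporters moved as follows, with limma adjusted p-values under 0.05 for each named gene. Of all genes tested, 17.5% rose and 12.6% fell with dipyridamole, and 5.94% rose and 2.17% fell with sorafenib. Of 15 cholesterol efflux and LXR genes tested, 4 rose and 3 fell with dipyridamole, against 17.5% and 12.6% of all genes. The oxysterol receptor NR1H3 (0.82 ± 0.16), apolipoprotein APOE (0.50 ± 0.15) and the lysosomal cholesterol exporters NPC1 (1.41 ± 0.12) and NPC2 (0.52 ± 0.11) rose, while LPCAT3 (-0.51 ± 0.11) and the cholesteryl ester hydrolase NCEH1 (-1.11 ± 0.11) were among those that fell. NCEH1 was among the 2 of the list that fell with sorafenib (-0.87 ± 0.11, against 2.17% of all genes), and no gene of the list rose with it (5.94%).

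Of 9 xenobiotic sensors and regulators tested, 4 rose with dipyridamole, against 17.5% of all genes. They were PPARA (1.03 ± 0.13), ARNT (0.57 ± 0.10), AHR (0.46 ± 0.13) and RXRB (0.40 ± 0.10). AHR, the aryl hydrocarbon receptor, was the 1 that rose with sorafenib (0.59 ± 0.13; 5.94% of all genes), and none of the 9 fell with either drug. Of 14 glutathione genes, which supply substrate to the ABCC pumps, 3 rose with each drug and none fell. This share is near the 17.5% of all genes that rose with dipyridamole and stands beside 5.94% with sorafenib. The cystine carrier SLC7A11 (0.72 ± 0.17 with sorafenib, 0.82 ± 0.17 with dipyridamole) and GGT1 (0.75 ± 0.18 and 1.24 ± 0.18) rose with both, GSTM4 with sorafenib (0.97 ± 0.13) and GSTO1 with dipyridamole (0.68 ± 0.10).

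Of 8 drug uptake carriers tested, 3 fell with each drug, against 2.17% of all genes with sorafenib and 12.6% with dipyridamole. They were SLCO4A1 (-1.39 ± 0.20 with sorafenib, -0.72 ± 0.20 with dipyridamole), the folate carrier SLC19A1 (-0.51 ± 0.11 and -0.82 ± 0.11) and the nucleoside carrier SLC29A1 (-0.72 ± 0.13 and -0.81 ± 0.13). SLCO3A1 rose with sorafenib (0.56 ± 0.12). Of 14 peroxisomal genes, 2 rose and 1 fell with each drug. For dipyridamole these shares are no higher than those of all genes (17.5% and 12.6%), and for sorafenib they stand beside 5.94% and 2.17%. PEX7 (0.69 ± 0.21) was among those that rose with dipyridamole, HSD17B4 (0.44 ± 0.11) and catalase, CAT (0.56 ± 0.12), rose with sorafenib, and ELOVL1 fell with sorafenib (-0.55 ± 0.11) and with dipyridamole (-0.57 ± 0.11).

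ABC family members whose symbols fall outside the naming rule were read apart. TAP1, which with TAP2 carries peptides into the endoplasmic reticulum for antigen loading, rose with sorafenib by 0.77 ± 0.09 (limma adjusted p = 0.00394; mean 67.9 FPKM). TAP2 (mean 15.9 FPKM) fell with dipyridamole by 0.56 on the log2(FPKM + 1) scale (SE 0.16, limma adjusted p = 0.0298). Of the 14 genes of that loading pathway, TAP1 and TAP2 included, 4 rose with sorafenib and none fell, against 5.94% and 2.17% of all genes. Beside TAP1 they were ERAP1 (0.82 ± 0.10), PSMB8 (0.64 ± 0.11) and PSMB9 (1.72 ± 0.19). With dipyridamole, HLA-B (0.73 ± 0.13), ERAP1 (0.35 ± 0.10) and PSMB10 (0.60 ± 0.17) rose and PDIA3 (-0.49 ± 0.14) fell beside TAP2, 3 and 2 of the 14 against 17.5% and 12.6% of all genes. The chloride channel CFTR had a mean of 0.121 FPKM. No gene of these lists passed between SLC29A2 and control cells.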

How the data were processed

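Poly(A) RNA of 8 libraries was read from the authors' deposited tables of FPKM per gene. GRCh38.p12, HTSeq 0.6.1, TopHat2 2.0 and edgeR were listed in the submitters' processing notes, with no role or order. The annotation release and strand setting were not stated. Of 58302 genes, 58039 matched GENCODE 29, which gave gene types and positions. Reads were recovered from FPKM and mean transcript length: 93.6% of values above 0 came out whole within 0.01 reads, and 98.7% of expressed genes had reads. The 13899 genes averaging 1 FPKM or more were fitted in limma 3.58.1 (R 4.3.3) on log2(FPKM + 1) with trended variances and an additive model of cell type, sorafenib and dipyridamole. Each interaction was added alone. Tests were two-sided, adjusted by Benjamini-Hochberg, and called at 0.05. The fit was tested on simulated data. Alternatives changed the pseudocount (0.1), the filter (0.1 FPKM or none), scaling, variance trend, model terms and libraries, or used trimmed-mean scaling and voom on recovered reads.

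The ABC genes, lists and tests were chosen with earlier results of these data known. Drug efflux genes and every ABC gene past the threshold are given for each library, other ABC genes at 1 FPKM or more by range and those under it by their highest value. List genes are named where they passed or where the list is short. A few genes are counted but not reported here by name.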

Additional observations from a re-analysis of the deposited data

How the results depend on the processing

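No paired analysis was possible because no condition has a replicate whose number could serve as a block; the additive model itself compares libraries that differ in 1 factor. With dipyridamole, 7 ABC genes were called; leaving out single libraries gave 3 to 6 calls, with 3 (1 higher, 2 lower) without the control-cell dipyridamole library and 4 (3 higher, 1 lower) without the SLC29A2 control-treatment library. Over all 13899 genes, leaving out single libraries gave 2926 to 3641 calls with dipyridamole, against 4173 before. Adding all pairwise interactions, which leaves 1 residual degree of freedom, gave 16 ABC calls with dipyridamole (11 higher, 5 lower). With sorafenib it gave 11 (10 higher, 1 lower), against 0 before, and these included ABCC2 and ABCC5. Over all genes that model called 7411 with dipyridamole (4366 higher, 3045 lower) and 4839 with sorafenib (3413 higher, 1426 lower). Voom on recovered reads gave 1 ABC call with sorafenib, against 1420 over all genes. Counts for cell type and for the 3 interactions were 0 under every alternative run.

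Of 352 alternative values of single ABC genes, 15 changed sign, all without a call in either fit. With sorafenib, ABCC1 went to -0.017 under size factors and ABCC3 ranged from -0.35 to 0.0089 with a library left out. With neither dipyridamole-treated library of control cells in the fit, the dipyridamole difference of ABCC2 was -0.067 and that of ABCC3 -0.041, and the cell type differences were 0.31 for ABCC2, 0.33 for ABCC3 and 0.23 for ABCC5. Leaving out a library moved the cell type difference of ABCC2 between -0.25 and 0.030, that of ABCC4 between -0.048 and 0.20 and that of ABCC5 between -0.19 and 0.051, and size factors gave 0.0088 for ABCC5. The cause of these changes was not tested. Low levels limit ABCB1, ABCG2, ABCC3 and ABCC9.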
